A study of Mus musculus with 40 samples.

Results

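The comparison described here sets 5 mammary glands of mice fed conjugated linoleic acid (CLA_132h) against 5 glands of mice on the control diet (Control_132h), all taken at 132 h, out of 40 samples in the series. The members are the 10 libraries that carry these labels, and every gene of the deposited tables was compared between them. All the mice were Balb/cJ and had lost their ovaries at 21 days of age, then recovered for 7 days. The CLA_132h mice then received an AIN 93G-based diet with 2.7% fat as CLA, and the Control_132h mice the same type of diet without it; neither group was given estrogen. The tissue was the number 4 inguinal gland with its lymph node cut away, which is mostly adipose tissue holding a small epithelial tree, vessels, nerves and immune cells. The labels describe the 5 samples of a group as biological replicates. A second pair of groups, CLA_108h and Control_108h, was taken at 108 h under the same diets, and the remaining groups had estrogen in the drinking water at 200 nM or were controls for it at 60 h and 84 h.

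Conjugated linoleic acid is a family of isomers of linoleic acid, and feeding some of them to mice is known for shrinking fat depots. Adipocytes store triglyceride made by a lipogenic pathway that insulin and SREBP1 drive, and they release adipokines such as adiponectin and leptin. Macrophages that gather around dying or lipid-releasing adipocytes take up lipid, acidify it in lysosomes and switch on a set of genes that includes Trem2, Gpnmb and Itgax. The mammary epithelium grows into this fat under ovarian estrogen, amphiregulin, FGF10 and IGF1, in an exchange of signals with the stroma.

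Library totals ran from 21484071 to 31340614 counts in the CLA libraries and from 18183713 to 29322546 in the control libraries. Mitochondrial genes took from 4.13 to 7.91% of the counts in the CLA libraries and from 7.75 to 9.67% in the control libraries. Control replicates 1, 2 and 3 held many transcripts of skin and hair: the mean log2 CPM (read counts scaled to a common library total) of that list was 6.09, 3.61 and 4.11 in them, and -1.28 and -2.16 in control replicates 4 and 5, while the 5 CLA libraries lay between -2.04 and -0.33. Control replicate 1 also held liver transcripts, a pattern noticed after the values were seen, with 2949 CPM of Alb (serum albumin) against 60.5 to 66.0 CPM in the other control libraries, while the CLA libraries held 14.8 to 18.7 CPM. Fast skeletal muscle myosin Myh4, likewise noticed afterwards, stood at 86.8 and 343 CPM in control replicates 1 and 2 and at 16.4 CPM in CLA replicate 1, and was below 3 CPM in the other 7. The list counts below therefore stand beside those of a fit without the 3 control libraries of high skin signal and 3 libraries of the Estrogen_84h group of that kind. That fit, called the skin-low libraries, rests on 5 CLA and 2 control libraries. Markers of the labelled tissue were present in all 10 libraries, among them Adipoq of fat cells and Krt8 and Krt14 of the epithelium. Krt14, which epidermis also makes, was highest in the 3 control libraries of high skin signal, so it does not mark mammary epithelium alone. On the first principal component, which took 56.6% of the variance, the CLA libraries lay between -65.9 and -48.3 and control replicates 1, 2 and 3 between 83.4 and 89.1, while control replicates 4 and 5 stood apart from both at 18.9 and 2.98.

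Of 17180 genes tested by edgeR's quasi-likelihood test with Benjamini-Hochberg adjustment at 0.05, 9613 (56.0%) changed: 4638 (27.0%) were higher and 4975 (29.0%) lower in CLA glands. In 3450 genes (20.1%) all 5 CLA libraries lay above all 5 control libraries, and in 2883 genes (16.8%) below them. Most changes were modest, with a median absolute log2 fold change of 0.62 among the genes called, and 1338 genes rose and 1463 fell by at least 1 log2 unit. Between the skin-low libraries 3750 genes (21.4%) were higher and 3575 (20.4%) lower, and 6898 of the 9613 genes kept their call and its sign. The largest falls depended on these libraries: of 289 genes that fell by 3 log2 units or more, 18 were called lower in the skin-low libraries, whereas of 119 genes that rose by as much, 118 were. Tests on log2(RPKM + 0.1) with limma split the calls differently: 6455 of 9553 genes were higher (67.6%), against 48.2% of those called from counts. Over all genes tested in the counts the median log2 fold change was -0.03. The numbers in the sample titles fall into 3 runs whose meaning the labels do not give. They hold 3 CLA and 2 control libraries, 1 and 2, and 1 and 1. Of the 9613 genes, 8890 had the same sign in all 3 runs. These genes were called on the same libraries, so their agreement was partly fixed by the call and is no independent check. Because these are whole glands, fewer cells of a type and less RNA per cell cannot be told apart, here or in any result below. Counts of called genes in the gene lists are to be read against 27.0% higher and 29.0% lower over all genes.

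**Figure D1:**
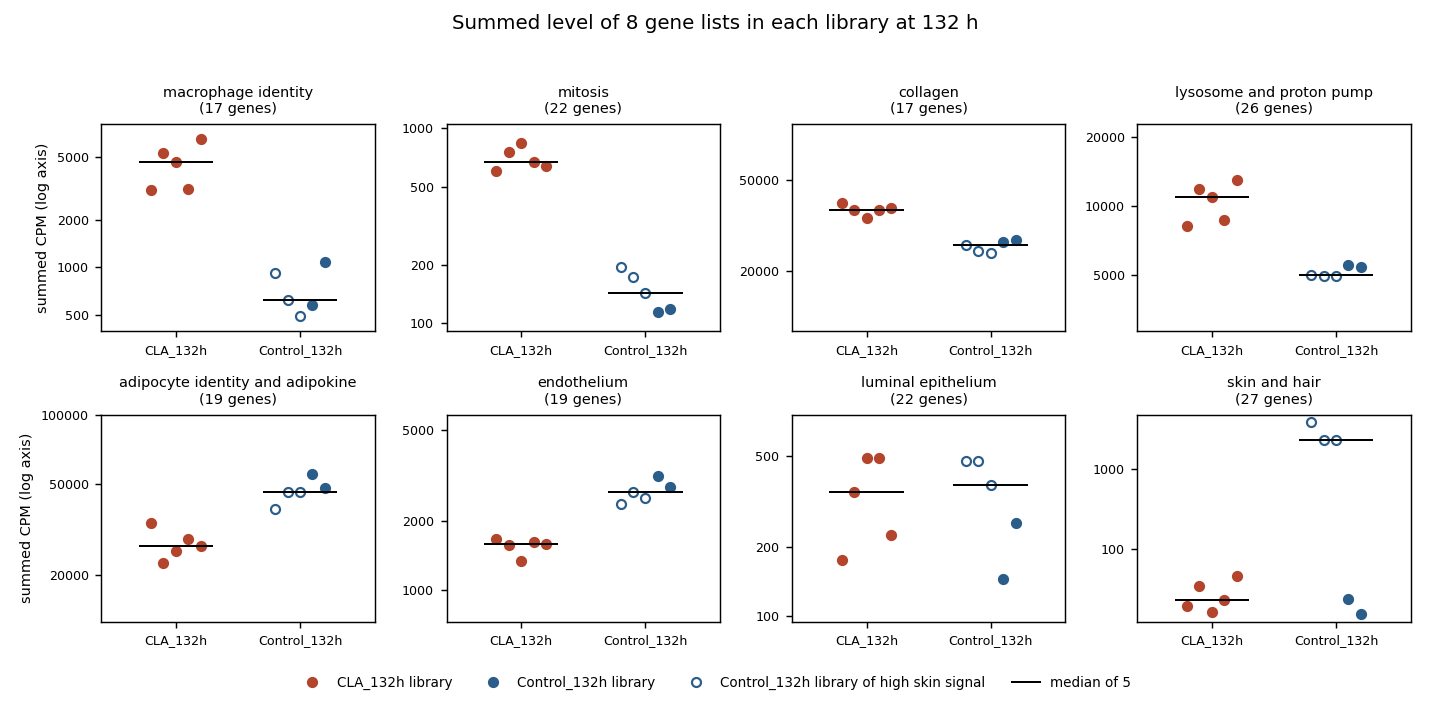
Summed CPM of 8 gene lists in each library at 132 h, on log axes, with CLA_132h at the left and Control_132h at the right of each panel. Filled points are single libraries, open points the 3 control libraries of high skin signal, and lines the group medians. The macrophage, mitosis, collagen and lysosome sums of the 5 CLA libraries all lie above those of the 5 control libraries, the adipocyte and endothelium sums all lie below them, and the luminal epithelium sums overlap.

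Macrophage genes rose together. Of 17 tested genes of macrophage identity, 16 were higher in CLA glands and none was lower, with a median log2 fold change of 2.65, against -0.03 over all genes. The summed CPM of the list ran from 3082 to 6446 in the CLA libraries and from 491 to 1074 in the control libraries, so the groups did not overlap. In the skin-low libraries 16 of 17 were called higher.

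Cd68, a lysosomal membrane protein of macrophages, had 281, 451, 405, 289.7 and 535 CPM in the CLA libraries, against 33.9, 29.6, 23.7, 29.3 and 40.5 CPM in the control libraries. All 5 CLA values were above all 5 control values, and the log2 fold change was 3.64 ± 0.18 (SE; edgeR adjusted p = 5.15e-11). Adgre1, which encodes the macrophage marker F4/80, had 138, 297, 245, 164 and 319 CPM in CLA glands, against 31.7, 21.5, 20.1, 19.9 and 41.0 CPM in control glands, a log2 fold change of 3.12 ± 0.28 (edgeR adjusted p = 4.84e-08). Tyrobp, the signalling adaptor of TREM2, rose by 3.15 ± 0.22 on the log2 scale, and Fcer1g, an adaptor of other receptors, by 2.54 ± 0.16. CLA replicates 1 and 4 were the lowest of the CLA group for each of these 4 genes, yet lay far above every control library. Mertk, a receptor for apoptotic cells, was the member that was not called, at a log2 fold change of 0.30 (edgeR adjusted p = 0.111).

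Genes of tissue-resident macrophages rose too, by less. All 13 tested members were called higher, with a median of 0.81, and 11 of the 13 in the skin-low libraries. Mrc1, the mannose receptor CD206, had 328, 469, 381, 357 and 421 CPM in CLA glands, against 137, 114, 110.3, 109.7 and 132 CPM in control glands, a log2 fold change of 1.70 ± 0.11 (edgeR adjusted p = 3.29e-10). Folr2, a folate receptor of resident macrophages, was tighter, at 113, 121, 115, 107 and 132 CPM in CLA glands and 42.3, 43.3, 38.8, 40.6 and 37.5 CPM in control glands (1.54 ± 0.08 log2 units). Neither gene overlapped between the groups. Pf4 rose by 1.55 ± 0.12 and Maf, a transcription factor of these cells, by 0.84 ± 0.08 log2 units.

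The lipid-associated macrophage genes held some of the largest folds. Of 22 tested members, 19 were higher and 2 lower, with a median of 2.02, and 18 and 2 in the skin-low libraries. Trem2, the lipid-sensing receptor of these cells (chromosome 17, 48346401 to 48354147 in GRCm38), had 92.6, 170.3, 155, 111 and 211 CPM in CLA glands, against 3.74, 3.36, 2.43, 3.09 and 7.51 CPM in control glands. The groups did not overlap, and the log2 fold change was 5.20 ± 0.32 (edgeR adjusted p = 5.70e-10). Mmp12, macrophage elastase (chromosome 9, 7344381 to 7369499), had 273, 437, 496, 358 and 439 CPM in CLA glands, against 5.24, 1.56, 0.655, 2.62 and 1.27 CPM in control glands, a log2 fold change of 7.48 ± 0.76 (edgeR adjusted p = 3.08e-07). Itgax, the integrin CD11c, had 59.8, 114, 94.4, 76.9 and 115 CPM in CLA glands, against 4.47, 2.22, 1.66, 1.86 and 3.56 CPM in control glands. For each of these genes the lowest CLA library exceeded the highest control library.

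Several of these genes are better known from osteoclasts and multinucleated giant cells. Atp6v0d2, a proton pump subunit needed for the fusion of such cells, had 95.0, 219.6, 188, 122 and 222 CPM in CLA glands, against 0.853, 1.07, 0.732, 1.69 and 1.27 CPM in control glands, a log2 fold change of 7.27 ± 0.41 (edgeR adjusted p = 2.74e-10). Dcstamp, which is required for fusion, had 9.38, 14.8, 18.8, 12.8 and 11.9 CPM in CLA glands and 0.244, 0.0326, 0.0385, 0.291 and 0.0439 CPM in control glands, where replicates 2, 3 and 5 held 1, 1 and 1 reads, so its fold of 6.77 ± 0.58 log2 units rests on few control reads. Tm4sf19, a tetraspan membrane protein, showed the largest rise among the genes taken by size, 7.79 ± 0.63 log2 units, with 10.5 to 35.4 CPM in CLA glands and 0 to 0.291 CPM in control glands. Acp5, the tartrate-resistant acid phosphatase that marks osteoclasts, went the other way. It had 170.3, 112, 127, 134 and 153 CPM in CLA glands, against 265, 301, 313, 355 and 344 CPM in control glands, without overlap, a log2 fold change of -1.18 ± 0.10 (edgeR adjusted p = 1.79e-08). Apoe, the lipid carrier, also fell, by 0.65 ± 0.17 log2 units, with overlapping groups.

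Several genes that handle cholesterol in foam cells rose. Nceh1, which hydrolyses cholesteryl esters, had 69.7 to 152 CPM in CLA glands and 5.94 to 10.4 CPM in control glands (3.82 ± 0.20 log2 units). Abcg1, a cholesterol exporter, had 89.0 to 166 CPM in CLA glands and 19.2 to 23.1 CPM in control glands (2.62 ± 0.14), and Soat1, which esterifies cholesterol, 97.0 to 184 and 15.6 to 31.8 CPM in those groups (2.65 ± 0.20). No group overlapped for these genes. Abca1, the other main exporter, was slightly lower, at -0.21 ± 0.07 log2 units, and lost its call in the skin-low libraries (adjusted p = 0.124) and without CLA replicate 3 or control replicate 2. Of 7 tested genes of cholesterol efflux and esterification, 2 were higher and 3 lower; leaving out CLA replicate 3 changed these counts to 1 and 1. Among the synthesis genes of sterols, 2 of 19 were higher and 3 lower, and Fdft1, squalene synthase, fell by 1.30 ± 0.15 log2 units. Without control replicate 1, 4 of the 19 were higher and 2 lower.

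**Figure D2:**
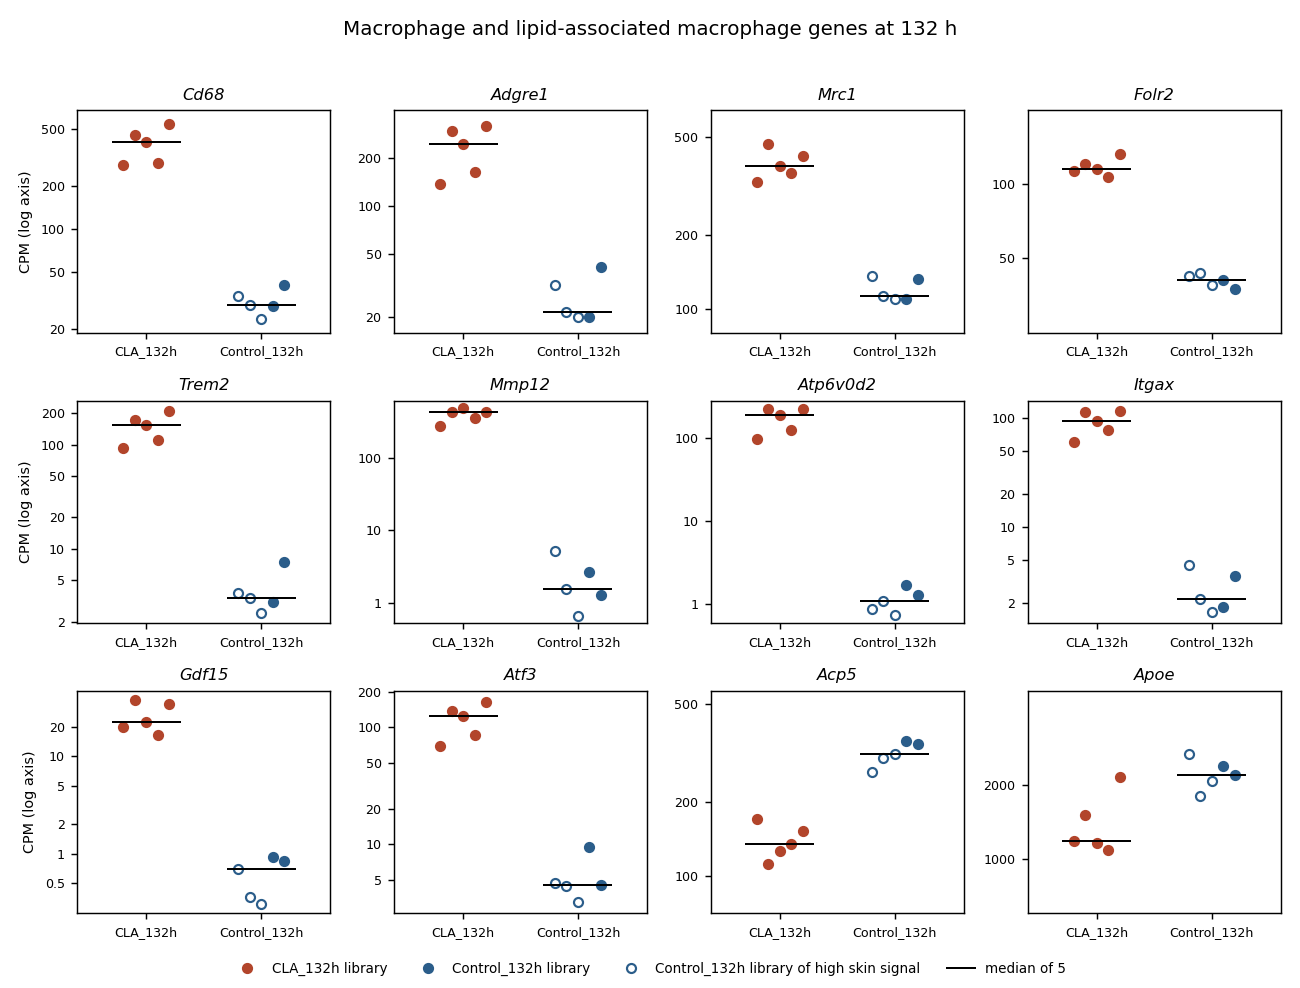
CPM of 12 genes in each library at 132 h, on log axes, with CLA_132h at the left of each panel; open points are the 3 control libraries of high skin signal, and lines are medians. The first 10 genes are higher in all 5 CLA libraries than in any control library, Acp5 is lower in all 5, and Apoe overlaps through CLA replicate 5.

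The phagocyte machinery moved with these markers. All 6 subunits of the phagocyte oxidase rose (median 2.31), among them Cybb, its catalytic subunit, with 116, 184, 194, 118 and 193 CPM in CLA glands, against 42.2, 22.9, 18.5, 17.8 and 52.5 CPM in control glands. Control replicates 1 and 5 were the highest controls, but no control reached a CLA library (2.38 ± 0.31 log2 units, edgeR adjusted p = 3.67e-06). Of 15 actin and Arp2/3 genes, all 15 rose without overlap between the groups, led by Lcp1, the leukocyte plastin (3.40 ± 0.18), and Capg, a capping protein (3.06 ± 0.17). All 6 oxidase genes and all 15 actin genes were also called higher in the skin-low libraries.

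Of 25 tested genes of the lysosome and its proton pump, 24 were higher and none lower, with a median of 0.65 (20 of 25 in the skin-low libraries). Gla, alpha-galactosidase A, had 35.9, 66.8, 58.4, 40.4 and 67.1 CPM in CLA glands, against 10.1, 7.79, 9.32, 9.85 and 12.7 CPM in control glands, a log2 fold change of 2.44 ± 0.17 (edgeR adjusted p = 6.85e-10). Atp6v1b2, a subunit of the pump, had 296, 482, 482, 355 and 497 CPM in CLA glands, against 102, 109, 110, 104 and 114 CPM in control glands (1.97 ± 0.11). Neither gene overlapped between the groups. Ctsa, a protective lysosomal protein, rose by 1.56 ± 0.11 and Atp6v0a1, a membrane subunit of the pump, by 1.60 ± 0.12 log2 units.

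Lysosomal genes often carry an E-box read by TFEB and its relatives. The letters TCACGTGA were searched on both strands (the motif is its own reverse complement) in RefSeq promoter windows of GRCm38.p6, from 250 bases before to 50 after a start site. They occurred in 5 of the 23 windows found for 18 of the 24 called lysosomal genes (21.7%) and in 320 of all 32851 windows (0.974%). Tfeb itself rose by 0.53 ± 0.08 and Tfe3 by 0.69 ± 0.06 log2 units. The promoters of Gla and Ctsa are shown because both genes are among the 4 of the list with the smallest p and each window holds the motif in 2 places (in capitals). In Gla the copies begin 228 and 195 bases before the start site.
Gla promoter, chrX:134600956-134601255, minus strand: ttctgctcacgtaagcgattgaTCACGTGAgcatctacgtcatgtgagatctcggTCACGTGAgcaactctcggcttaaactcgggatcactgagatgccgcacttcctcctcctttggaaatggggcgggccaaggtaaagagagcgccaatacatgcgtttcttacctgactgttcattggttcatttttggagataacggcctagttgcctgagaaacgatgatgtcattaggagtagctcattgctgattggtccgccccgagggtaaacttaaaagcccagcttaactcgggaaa
Ctsa promoter, chr2:164833523-164833822, plus strand: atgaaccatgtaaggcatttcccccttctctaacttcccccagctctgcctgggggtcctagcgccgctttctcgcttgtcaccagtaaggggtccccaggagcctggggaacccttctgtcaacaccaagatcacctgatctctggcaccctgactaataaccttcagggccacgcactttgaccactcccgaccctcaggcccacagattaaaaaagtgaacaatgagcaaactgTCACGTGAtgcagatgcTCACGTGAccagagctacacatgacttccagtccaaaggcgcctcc

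Stress genes formed a second rising group. Of 23 genes of the integrated stress response, which ATF4 controls when translation initiation is curbed, 13 were higher and 2 lower (median 0.60), and 14 and 2 in the skin-low libraries. Gdf15, a stress hormone that curbs appetite (chromosome 8), had 19.6, 37.1, 22.4, 16.6 and 34.4 CPM in CLA glands, against 0.691, 0.358, 0.308, 0.932 and 0.835 CPM in control glands, a log2 fold change of 5.41 ± 0.31 (edgeR adjusted p = 1.04e-10). Atf3, a transcription factor of the pathway, had 69.9, 138, 126, 85.3 and 164 CPM in CLA glands, against 4.71, 4.43, 3.23, 9.44 and 4.53 CPM in control glands (4.49 ± 0.30, edgeR adjusted p = 1.45e-09). In both genes all CLA libraries lay above all control libraries. Fgf21, a metabolic hormone, was far less abundant but also separated the groups, with 5.82, 7.72, 3.50, 2.24 and 8.10 CPM in CLA glands, against 0.853, 0.130, 0.308, 0.175 and 0.132 CPM in control glands (4.07 ± 0.60).

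The rest of the stress list split. Atf4 itself rose by 0.65 ± 0.09 and Ddit3, which encodes CHOP, by 0.80 ± 0.13 log2 units. Mthfd2, a mitochondrial folate enzyme, rose by 1.59 ± 0.12, and Slc3a2, an amino acid transporter chain, by 0.79 ± 0.09. Phgdh, the first enzyme of serine synthesis, fell by 1.02 ± 0.12, and the lipoprotein receptor gene Vldlr fell by 0.84 ± 0.10 log2 units. The classic targets Asns, Sesn2 and Chac1 were not called, at log2 fold changes of -0.11, -0.00 and -0.50; Chac1 was called higher, at 2.30, in the skin-low libraries (adjusted p = 0.00119).

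The composite element of ATF4 and C/EBP proteins, TGATGCAA, was searched on both strands of the same windows. It occurred in 3 of the 17 windows found for 14 of the 15 called stress genes (17.6%), those of Atf3, Fgf21 and Vldlr, and in 294 of all 32851 windows (0.895%). Atf3 and Fgf21 rose and Vldlr fell, so the members with a match moved in both directions. The windows of the pair that rose are shown, with the match (reverse strand) in capitals. It begins 110 bases before the start site in Atf3 and 139 bases before it in Fgf21.
Atf3 promoter, chr1:191183284-191183583, minus strand: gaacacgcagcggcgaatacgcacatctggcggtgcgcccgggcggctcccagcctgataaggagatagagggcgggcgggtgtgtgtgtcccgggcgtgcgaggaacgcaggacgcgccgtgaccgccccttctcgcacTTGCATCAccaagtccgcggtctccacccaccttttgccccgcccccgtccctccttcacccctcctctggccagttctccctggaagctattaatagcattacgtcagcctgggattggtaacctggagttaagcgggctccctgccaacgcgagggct
Fgf21 promoter, chr7:45615441-45615740, minus strand: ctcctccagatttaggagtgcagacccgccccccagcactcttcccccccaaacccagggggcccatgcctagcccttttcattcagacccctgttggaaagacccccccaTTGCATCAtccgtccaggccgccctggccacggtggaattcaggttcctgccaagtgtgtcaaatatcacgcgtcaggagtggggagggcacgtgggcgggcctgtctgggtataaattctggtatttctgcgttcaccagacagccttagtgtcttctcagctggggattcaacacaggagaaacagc

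Most genes for chaperones of the endoplasmic reticulum and for the proteasome rose. Of 20 chaperone and unfolded protein genes 18 were higher and 1 lower (median 0.54), led by Sdf2l1 (1.54 ± 0.16) and Pdia3, a disulfide isomerase (0.76 ± 0.07); the exception was Herpud1, which fell by 0.58 ± 0.13 log2 units. In the skin-low libraries 14 were higher and 1 lower. Of 25 proteasome genes 23 were higher and none lower, with a median of only 0.36. Psma5 had 30.2, 27.5, 29.7, 29.1 and 30.6 CPM in CLA glands, against 18.2, 20.3, 19.7, 19.9 and 19.2 CPM in control glands, groups that lay apart although the log2 fold change was 0.60 ± 0.05 (edgeR adjusted p = 1.96e-08). In the proteasome list 20 of 25 were higher in the skin-low libraries.

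Antioxidant genes of the NRF2 pathway divided. Of 17 tested, 9 were higher and 2 lower (median 0.45), with the same counts in the skin-low libraries. Srxn1, which repairs oxidised peroxiredoxin, had 144, 167, 137, 147 and 179 CPM in CLA glands, against 38.5, 32.4, 39.8, 40.1 and 43.5 CPM in control glands, without overlap (1.99 ± 0.11, edgeR adjusted p = 8.92e-11). Prdx1, a peroxiredoxin, rose by 0.95 ± 0.07 and Ftl1, ferritin light chain, by 1.78 ± 0.11; Ftl1 has near-identical copies in the genome and its count is less certain. Catalase (Cat), a peroxisomal enzyme, fell by 0.86 ± 0.12, and the glutathione transferase gene Gstm1 by 0.82 ± 0.11 log2 units. Nqo1 was not called (0.38).

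Chemokine genes mostly rose. Of 20 tested ligands 12 were higher and 1 lower (median 1.34), and 10 and 1 in the skin-low libraries. Ccl9, a macrophage chemokine, had 360.2, 482, 508, 343 and 461 CPM in CLA glands, against 37.4, 39.1, 22.7, 30.1 and 42.6 CPM in control glands, a log2 fold change of 3.65 ± 0.18 (edgeR adjusted p = 5.15e-11). Ccl6, which lies in the same cluster of genes and has a similar sequence, rose by 2.95 ± 0.20. Ccl2, the main monocyte attractant, had 3.82, 5.48, 6.62, 3.56 and 6.47 CPM in CLA glands and 0.894, 0.228, 0.347, 0.175 and 0.923 CPM in control glands (3.32 ± 0.49). Cxcl9, an interferon-gamma target, was the single ligand that fell, by 0.95 ± 0.16 log2 units, with 6.17 to 11.1 CPM in CLA glands and 13.2 to 19.4 CPM in control glands. Of 10 receptors 6 rose and none fell, with Ccr1 at 2.12 ± 0.43 and Ccr2, the receptor for CCL2, at 1.99 ± 0.23 log2 units.

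Among interleukin-1 family genes the antagonist was called and the agonist Il1b was not. Il1rn, the receptor antagonist, had 70.8, 158, 161, 85.9 and 154 CPM in CLA glands, against 8.17, 4.07, 3.27, 1.86 and 2.33 CPM in control glands, a log2 fold change of 4.97 ± 0.45 (edgeR adjusted p = 5.54e-08). Il1b had 0.889, 1.25, 1.71, 0.775 and 3.37 CPM in CLA glands, against 1.50, 0.587, 0.847, 0.874 and 2.11 CPM in control glands, and was not called (0.44 ± 0.41, edgeR adjusted p = 0.379). The groups overlapped for Il1b. Over the list, 7 of 12 were higher and none lower, Il1rl1, the interleukin-33 receptor, at 1.42 ± 0.13 and Casp1 at 1.45 ± 0.13.

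Of 17 other cytokines and receptors 12 were higher and 1 lower (10 and 1 in the skin-low libraries). Tnf rose modestly, with 1.78, 2.15, 2.75, 1.66 and 2.61 CPM in CLA glands, against 1.18, 0.880, 1.39, 1.40 and 1.05 CPM in control glands, without overlap (0.90 ± 0.20, edgeR adjusted p = 9.19e-04). The 2 ligands of the CSF1 receptor went opposite ways: Csf1 rose by 0.65 ± 0.08 and Il34 fell by 0.52 ± 0.12 log2 units. Il7r rose by 5.04 ± 0.43, with 24.3 to 58.0 CPM in CLA glands and 0.770 to 2.11 CPM in control glands. Alternative activation genes were mixed, with 5 of 10 higher and 1 lower; Clec10a, a lectin, rose by 1.96 ± 0.17, Retnla by 0.87 ± 0.13, and Arg1 was not called.

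Antigen presentation genes rose: 11 of 14 genes of MHC class II and dendritic cells were higher and 2 lower (median 1.76), 9 and 2 in the skin-low libraries. H2-Ab1, a class II chain, had 202, 273, 244, 191 and 406 CPM in CLA glands, against 85.2, 63.5, 46.4, 56.4 and 80.0 CPM in control glands (1.99 ± 0.19, edgeR adjusted p = 9.93e-08). Batf3, a dendritic cell factor, rose by 1.87 ± 0.14, whereas Zbtb46, another one, fell by 0.43 ± 0.09 log2 units. C1qa, C1qb and C1qc, the chains of complement C1q, rose by 0.97, 1.33 and 1.14 log2 units, while C3, the central complement protein, fell by 0.69 ± 0.15. The complement list as a whole had 9 of 16 higher and 3 lower.

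Other leukocytes gave little signal. Of 11 tested T and NK cell genes 1 was higher and 3 lower, and without control replicate 1 these counts were 3 and none; the lower ones were Cd8a, Cd8b1 and Cd3g. Cd8a was below 1 CPM in all libraries but that one, which held 2.44 CPM. Of 10 B and plasma cell genes none was higher and 1 lower, of 6 neutrophil genes none was higher and 1 lower, and of 9 mast cell and eosinophil genes 2 were higher; leaving out single libraries kept each of these counts between 0 and 2. Interferon-induced genes were called higher in 14 of 19, but the count was 2 of 19 in the skin-low libraries 8 without CLA replicate 3, 6 when the 2 groups at 132 h were fitted alone and 3 when that fit also had the run of title numbers as a term. The summed CPM of the list was 2215 in CLA replicate 3 and ran from 823 to 952 in the other CLA libraries. It ran from 748 to 891 in the control libraries.

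Fat cell genes fell as a block. Of 19 tested genes of adipocyte identity and adipokines, none was higher and 16 were lower, with a median of -1.19 (15 of 19 in the skin-low libraries). Adipoq, adiponectin, had 718, 381, 477, 581 and 545 CPM in CLA glands, against 1214, 1508, 1399, 1759 and 1427 CPM in control glands, a log2 fold change of -1.44 ± 0.13 (edgeR adjusted p = 2.38e-08). All 5 CLA values were below all 5 control values. Lep, leptin, had 136, 207, 190.3, 114 and 193 CPM in CLA glands, against 315, 209, 261, 288 and 224 CPM in control glands; the groups did not overlap, but the margin was narrow (-0.63 ± 0.26, edgeR adjusted p = 0.0485), and the call was lost in the skin-low libraries (adjusted p = 0.249) and in 8 of 10 fits that left out 1 library, those without control replicate 2 and without CLA replicate 2 excepted. Pparg, the master regulator of fat cells, fell by 0.67 ± 0.14 and Cebpa, its partner, by 0.98 ± 0.12 log2 units. Fabp4, Lpl and Cd36, which macrophages also make, were not called, at -0.24, -0.09 and 0.07; Fabp4 was called lower by DESeq2 and with upper-quartile scaling, and without CLA replicate 1 or control replicate 1.

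Genes of the lipogenic pathway fell. In the list for making fatty acids and triglycerides, 18 of 19 genes were lower and none higher, with a median of -1.35, and again 18 in the skin-low libraries. Fasn, fatty acid synthase (chromosome 11), had 6005, 3122, 3042, 4594 and 3917 CPM in CLA glands, against 16810, 8997, 25520, 13880 and 23980 CPM in control glands, a log2 fold change of -2.11 ± 0.28 (edgeR adjusted p = 3.50e-06). Scd1, the delta-9 desaturase, had 8998, 9629, 7783, 7800 and 9497 CPM in CLA glands, against 26200, 22800, 27840, 23850 and 32540 CPM in control glands (-1.61 ± 0.19). Both genes separated the groups completely. Acacb, an acetyl-CoA carboxylase that restrains fatty acid oxidation, had 244 to 389 CPM in CLA glands and 762 to 1047 CPM in control glands (-1.68 ± 0.13), and Dgat2, which adds the last acyl chain of triglyceride, 499 to 726 and 1317 to 2950 CPM in those groups (-1.81 ± 0.21). The regulators Srebf1 and Mlxipl fell by 1.04 ± 0.15 and 1.65 ± 0.24 log2 units. A sterol regulatory element (TCACNCCAC, both strands) was in 1 of the 20 windows found for 15 of the 18 genes and in 1.24% of all windows.

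Proteins of the lipid droplet fell with 2 exceptions. Of 15 tested, 12 were lower and 2 higher. Plin1, which coats the droplets of fat cells, had 1487, 936, 987, 1203 and 1259 CPM in CLA glands, against 2042, 2210, 2429, 2805 and 2529 CPM in control glands (-1.03 ± 0.12, edgeR adjusted p = 3.77e-07). Pnpla2, adipose triglyceride lipase, fell by 1.18 ± 0.12 log2 units. Hilpda, an inhibitor of that lipase that is also found in foam cells, rose, with 14.8, 26.5, 25.4, 20.0 and 31.0 CPM in CLA glands, against 6.58, 6.36, 6.08, 7.63 and 9.40 CPM in control glands (1.71 ± 0.19). Plin3 was higher by only 0.25 ± 0.10 and lost its call without CLA replicate 1 or 5, without control replicate 1 or 2, and in the skin-low libraries (adjusted p = 0.223), where 12 were lower and 1 higher.

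Fatty acid oxidation fell with one exception. Of 21 genes 20 were lower and 1 higher, with a median of -0.72 and the same counts in the skin-low libraries. Acadm, medium-chain acyl-CoA dehydrogenase, had 785, 458, 423, 565 and 579 CPM in CLA glands, against 886, 983, 949, 1262 and 1106 CPM in control glands, a log2 fold change of -0.88 ± 0.14 (edgeR adjusted p = 3.14e-05). Cpt1a, which admits long-chain fatty acids into mitochondria (chromosome 19), moved against it, with 136, 205, 187, 161 and 215 CPM in CLA glands, against 86.8, 73.6, 65.5, 62.1 and 69.7 CPM in control glands (1.34 ± 0.14, edgeR adjusted p = 2.46e-07). Its muscle and fat paralog Cpt1b fell by 1.09 ± 0.28 log2 units. On the per-length scale, Cpt1a averaged 33.7 RPKM in CLA glands and 11.7 RPKM in control glands, and Cpt1b 4.23 and 11.3 RPKM in those groups.

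Genes of the brown and beige fat programme fell more often than they rose. Ucp1, the uncoupling protein, had 1281, 371, 269, 719.6 and 646 CPM in CLA glands, against 621, 405, 794, 1196 and 1111 CPM in control glands, and was not called (-0.33 ± 0.36, edgeR adjusted p = 0.46). CLA replicate 1 held the highest Ucp1 value of all 10 libraries and CLA replicate 3 the lowest. Adrb3, the fat cell adrenergic receptor, fell by 1.47 ± 0.20 and the potassium channel gene Kcnk3 by 1.25 ± 0.16. Over the list 7 of 14 were lower and 1 higher (median -0.66), and 8 lower and 1 higher in the skin-low libraries. The single higher member was Tmem26, at 1.78 ± 0.25 log2 units.

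Mitochondrial and amino acid genes followed the fall. Of 25 nuclear genes of the respiratory chain 24 were lower and none higher (median -0.59), and 24 again in the skin-low libraries; Sdha, of complex II, had 402 to 587 CPM in CLA glands and 781 to 1020 CPM in control glands (-0.95 ± 0.11). Of 13 genes of the mitochondrial genome 11 were lower (median -0.73); the count was 9 when the 2 groups at 132 h were fitted alone, and 6 when that fit also had the run of title numbers as a term. Branched-chain amino acid catabolism, which is active in fat cells, had 14 of 15 genes lower and none higher. Ivd, isovaleryl-CoA dehydrogenase, had 159.6, 97.1, 108, 132 and 140.5 CPM in CLA glands, against 336, 359, 377, 419 and 435 CPM in control glands, well apart (-1.60 ± 0.11, edgeR adjusted p = 7.86e-10).

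Insulin signalling and glucose transport fell in 10 of 12 genes, and 8 of 12 in the skin-low libraries. Slc2a4, the insulin-regulated glucose carrier GLUT4, had 133, 76.9, 76.9, 115 and 89.0 CPM in CLA glands, against 346, 262, 458, 308 and 398 CPM in control glands (-1.85 ± 0.22, edgeR adjusted p = 1.00e-06). Insr, the insulin receptor, fell by 0.75 ± 0.08, and Slc2a1 and Irs2 were not called. Glycolysis genes were mixed (3 of 14 higher, 4 lower), near the shares over all genes (27.0% and 29.0%). Hk3, the hexokinase of leukocytes, was higher by 3.41 ± 0.23 and Pfkfb3 lower by 0.83 ± 0.16 log2 units. The glucocorticoid-activating enzyme Hsd11b1 was among the 12 largest falls that met the naming conditions. These conditions included no overlap and a call in the skin-low libraries, so being called lower there was required by the choice. Hsd11b1 had 2.40, 1.12, 1.56, 2.64 and 0.828 CPM in CLA glands, against 13.8, 10.5, 17.7, 15.4 and 13.9 CPM in control glands (-3.06 ± 0.28). It and Vnn3, a pantetheinase gene (-3.21 ± 0.22), kept log2 fold changes of -3.11 and -3.27 in the skin-low libraries. Alb, Apoc3 and Cbs, also among those 12, shrank there to -1.95, -2.19 and -1.70, against -5.24, -6.49 and -3.35 in all libraries.

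**Figure D3:**
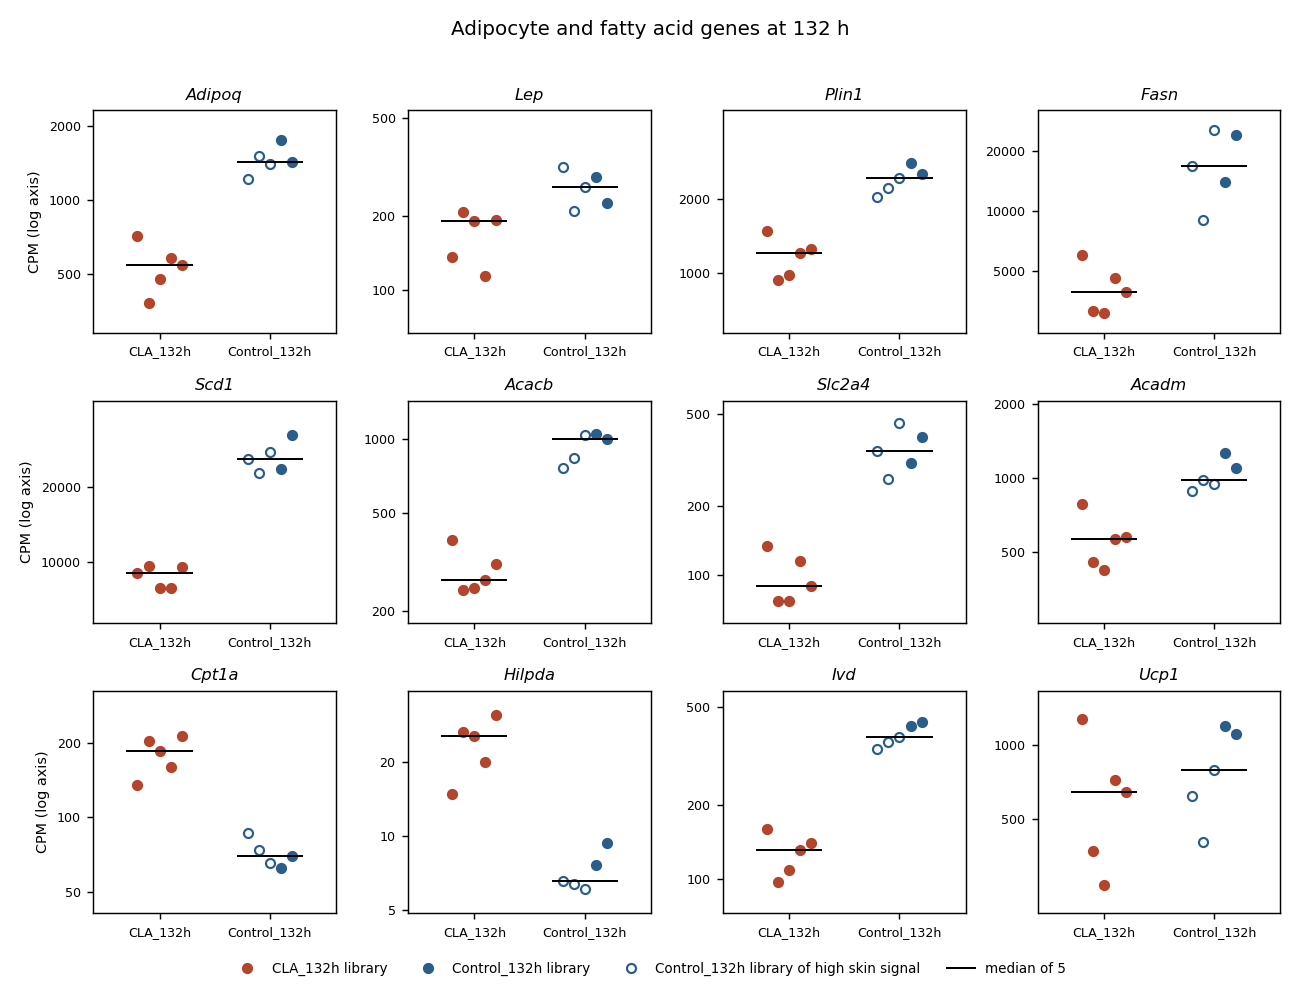
CPM of 12 adipocyte and fatty acid genes in each library at 132 h, on log axes, with CLA_132h at the left of each panel; open points are the 3 control libraries of high skin signal, and lines are medians. Adipoq, Lep, Plin1, Fasn, Scd1, Acacb, Slc2a4, Acadm and Ivd are lower in all 5 CLA libraries than in any control library, Cpt1a and Hilpda are higher in all 5, and Ucp1 overlaps.

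Cell division genes rose together. All 22 mitosis genes were higher, with a median of 2.29, and all 22 separated the groups; all 22 were called higher in the skin-low libraries too. Mki67, the proliferation antigen Ki-67, had 114, 152, 166, 122 and 122 CPM in CLA glands, against 45.3, 40.2, 30.4, 18.9 and 23.2 CPM in control glands, a log2 fold change of 2.09 ± 0.22 (edgeR adjusted p = 2.52e-07). The control libraries of high skin signal held the 3 highest control values. Ccnb2, a mitotic cyclin, rose by 2.53 ± 0.15 and Plk1, a mitotic kinase, by 2.26 ± 0.14 log2 units. Of 27 DNA replication genes 25 were higher and none lower (median 1.28); Pcna, the polymerase clamp, had 39.2, 53.6, 53.0, 40.8 and 46.6 CPM in CLA glands, against 15.4, 16.0, 15.8, 16.3 and 17.1 CPM in control glands (1.53 ± 0.09, edgeR adjusted p = 1.50e-10). The list sums cannot tell which cells divided.

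Regulators of the G1 phase moved less evenly, with 5 of 13 higher and 2 lower. Together they were called about as often as all genes (56.0%). Cdk4 rose by 0.72 ± 0.06 and Cdk6 by 0.62 ± 0.11, while Rb1, the retinoblastoma gene, fell by 0.64 ± 0.07 log2 units. Cdkn2a, which encodes the inhibitors p16 and p19ARF, was scarce in both groups, with 0.489, 0.903, 0.930, 0.918 and 0.705 CPM in CLA glands, against 0.0813, 0.163, 0.0770, 0.0583 and 0.220 CPM in control glands (2.65 ± 0.45, edgeR adjusted p = 5.34e-05). Among immediate early genes 8 of 21 rose and 1 fell. Myc had 33.7 to 51.5 CPM in CLA glands and 15.3 to 17.1 CPM in control glands (1.47 ± 0.14), Egr2 rose by 2.80 ± 0.34, and Egr1 was not called (0.42).

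Most collagen genes rose, and a pair of basement membrane chains fell. Of 17 collagen genes 13 were higher and 2 lower (median 0.54), and 11 and 2 in the skin-low libraries. Col1a1, a chain of type I collagen, had 8580, 7301, 6685, 7533 and 7550 CPM in CLA glands, against 5201, 4825, 4723, 4913 and 5220 CPM in control glands, without overlap (0.60 ± 0.15, edgeR adjusted p = 0.00272). Col5a2 rose by 0.79 ± 0.09 log2 units. The 2 that fell were Col4a1 and Col4a2, the main type IV chains of basement membranes, by 0.46 ± 0.12 and 0.37 ± 0.11; neither was called when log2 RPKM values were tested instead. Of 24 matrix glycoprotein and crosslinking genes 17 were higher and 1 lower. Postn, periostin, had 2213, 2436, 2578, 2144 and 2465 CPM in CLA glands, against 1074, 1049, 858, 1055 and 984 CPM in control glands (1.24 ± 0.13), and Lum, lumican, rose by 1.42 ± 0.12; Prelp, which anchors basement membranes, fell by 1.03 ± 0.15.

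Proteases of the matrix changed in both directions, with 12 of 19 higher and 4 lower. Adam8, a metalloprotease of activated leukocytes, had 189.9, 408, 347, 211 and 392 CPM in CLA glands, against 8.98, 9.06, 5.85, 9.79 and 15.4 CPM in control glands (4.98 ± 0.32, edgeR adjusted p = 7.79e-10). Mmp19 rose by 1.80 ± 0.12, and the inhibitor genes diverged, with Timp1 at 2.34 ± 0.34 and Timp4, an inhibitor of fat, at -1.97 ± 0.27. Fibroblast and progenitor genes were higher in 8 of 13 and lower in none (6 in the skin-low libraries). Pdgfra, the receptor that marks adipose progenitors, had 217, 222, 234, 227 and 217 CPM in CLA glands, against 111, 107, 93.5, 98.2 and 101 CPM in control glands, with little spread in either group (1.13 ± 0.09, edgeR adjusted p = 6.41e-09).

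Vascular genes fell. Of 19 endothelial genes 17 were lower and none higher, with a median of -0.88 (16 in the skin-low libraries), and the summed CPM ran from 1347 to 1665 in CLA glands and from 2387 to 3159 in control glands. Kdr, the main VEGF receptor, had 114, 102, 98.4, 99.9 and 118 CPM in CLA glands, against 223, 192, 254, 273 and 288 CPM in control glands (-1.21 ± 0.10, edgeR adjusted p = 8.59e-09). Cdh5, VE-cadherin, fell by 1.14 ± 0.11, and Pecam1 by 0.67 ± 0.08 log2 units; Vwf and Tek were not called. Smooth muscle and pericyte genes were lower in 8 of 10, Rgs5 of pericytes by 1.13 ± 0.12. Vegfa, the ligand of KDR, had 274, 189, 196, 239.8 and 221 CPM in CLA glands, against 443, 442, 529, 569.8 and 514 CPM in control glands, also without overlap (-1.16 ± 0.10). Within the angiogenic list 7 of 12 were lower and 3 higher, among the higher ones Pdpn, podoplanin (0.79 ± 0.12).

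Epithelial genes gave no common direction, and their calls differed between all libraries and the skin-low ones. Of 22 luminal genes 2 were higher and 3 lower, and the list median was -0.15 in all libraries but 1.25 in the skin-low ones, where none was called higher and 1 lower. Without CLA replicate 1, 4 were higher, without control replicate 4, 5 were lower, and without control replicate 2, 1 was lower. Krt8, a luminal keratin, had 3.73, 19.8, 41.8, 23.9 and 9.90 CPM in CLA glands, against 12.5, 13.5, 4.16, 1.69 and 6.20 CPM in control glands, and was not called (1.37 ± 0.71, edgeR adjusted p = 0.112). CLA replicate 1 held the lowest Krt8 value of its group and CLA replicate 3 the highest. Kit, a receptor of luminal progenitors and mast cells, was the luminal gene called lower in both sets, with 15.6, 23.8, 24.6, 31.8 and 17.5 CPM in CLA glands, against 42.4, 36.7, 45.2, 37.8 and 43.7 CPM in control glands (-0.86 ± 0.16, edgeR adjusted p = 1.61e-04).

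The basal list also differed between the sets. Krt14, made by basal mammary cells and by epidermis, had 0.667, 6.51, 9.04, 8.29 and 5.33 CPM in CLA glands, against 249, 36.3, 63.4, 2.62 and 2.99 CPM in control glands; its log2 fold change was -3.56 ± 1.02 in all libraries and 1.09 in the skin-low ones (adjusted p = 0.411), and without control replicate 1 the call was lost (-2.14, adjusted p = 0.0506). Over the basal list 10 of 14 were lower, and 2 lower and 1 higher in the skin-low libraries. In the skin and hair list 23 of 25 were lower in all libraries and none in the skin-low libraries. Wnt4, which progesterone induces in luminal cells and which skin also makes, differed between the sets like Krt14, with 0.356, 2.83, 2.83, 3.33 and 1.44 CPM in CLA glands, against 16.9, 18.6, 15.9, 0.583 and 0.967 CPM in control glands. Its log2 fold change was -2.29 in all libraries and 1.46 in the skin-low ones (adjusted p = 0.201). The part of skin RNA in these results was not tested.

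Ligands and receptors of duct growth changed in part. Of 17 FGF signalling genes 4 were higher and 2 lower, beside 27.0% and 29.0% over all genes. The lower ones were Fgfr3 and Fgfr4. In the skin-low libraries 6 were higher and none lower. Fgf10, the stromal growth factor for epithelial buds (chromosome 13), had 163, 197, 233, 173 and 163 CPM in CLA glands, against 62.9, 63.6, 72.6, 69.2 and 73.5 CPM in control glands, far apart (1.44 ± 0.10, edgeR adjusted p = 1.07e-09), and Etv5, a transcription factor downstream of FGF receptors, rose by 1.44 ± 0.17. Egfr had 114, 109, 106, 101 and 97.7 CPM in CLA glands, against 94.4, 75.0, 52.5, 49.8 and 34.6 CPM in control glands (0.78 ± 0.18), with the 3 highest control values in the libraries of high skin signal. Adam17, the protease that sheds amphiregulin, rose by 0.79 ± 0.14. These were the only 2 of 14 genes of EGF ligands and ErbB receptors called higher in the 20-library fit. In the skin-low libraries 2 were higher and 2 lower. In the 20-library fit 5 of the 14 were lower (median -0.40), and the list was called about as often as all genes (56.0%). Among the lower ones the ligand gene Btc, betacellulin, fell by 1.11 ± 0.28 log2 units. Areg, amphiregulin itself, had 0.622, 0.561, 2.75, 0.775 and 0.0920 CPM in CLA glands, against 1.54, 1.40, 1.58, 0.0583 and 0.0439 CPM in control glands, and was not called (-0.02, edgeR adjusted p = 0.983); in the skin-low libraries its log2 fold change was 4.12 (adjusted p = 0.052), where both control libraries held 1 read.

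Igf1 was not called (0.02 ± 0.17), with 211 to 266 CPM in CLA glands and 193 to 242 CPM in control glands. Ghr, the growth hormone receptor, fell by 0.87 ± 0.12, and Igfbp3 by 1.49 ± 0.24 log2 units. In the IGF list 3 of 12 were higher and 5 lower, with the same counts in the skin-low libraries, and Igf2r, which clears IGF2, rose by 0.71 ± 0.12. In the TGF-beta and activin list 6 of 15 were higher and 6 lower (6 and 4 in the skin-low libraries): Tgfb1 rose by 1.27 ± 0.11, and Ltbp2, a latent TGF-beta binding protein family member, fell by 1.32 ± 0.19 log2 units. Of 22 Wnt pathway genes 2 were higher and 9 lower, and none and 4 in the skin-low libraries; the higher count was 1 in 7 of the fits that left out a library; the target gene Axin2 fell by 0.70 ± 0.11 and Wnt5a by 0.64 ± 0.13, both also called there.

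Steroid receptors and estrogen targets gave no common direction in these ovariectomised mice, and were called about as often as all genes (56.0%). Esr1 had 118, 95.7, 114, 128 and 92.5 CPM in CLA glands, against 103, 114, 100.1, 107 and 104 CPM in control glands (0.05 ± 0.13, edgeR adjusted p = 0.75), and Pgr, its classic target, overlapped at 0.445 to 3.93 CPM in CLA glands and 0.524 to 2.22 CPM in control glands. Cited1, a coactivator of the estrogen receptor, did rise, with 15.3, 27.4, 38.1, 35.0 and 29.2 CPM in CLA glands, against 8.33, 11.0, 5.93, 3.85 and 7.38 CPM in control glands (1.98 ± 0.48, edgeR adjusted p = 0.00184). Over the list 2 of 11 were higher and 4 lower, and 1 was higher without CLA replicate 3 or 5 or control replicate 1 or 4.

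**Figure D4:**
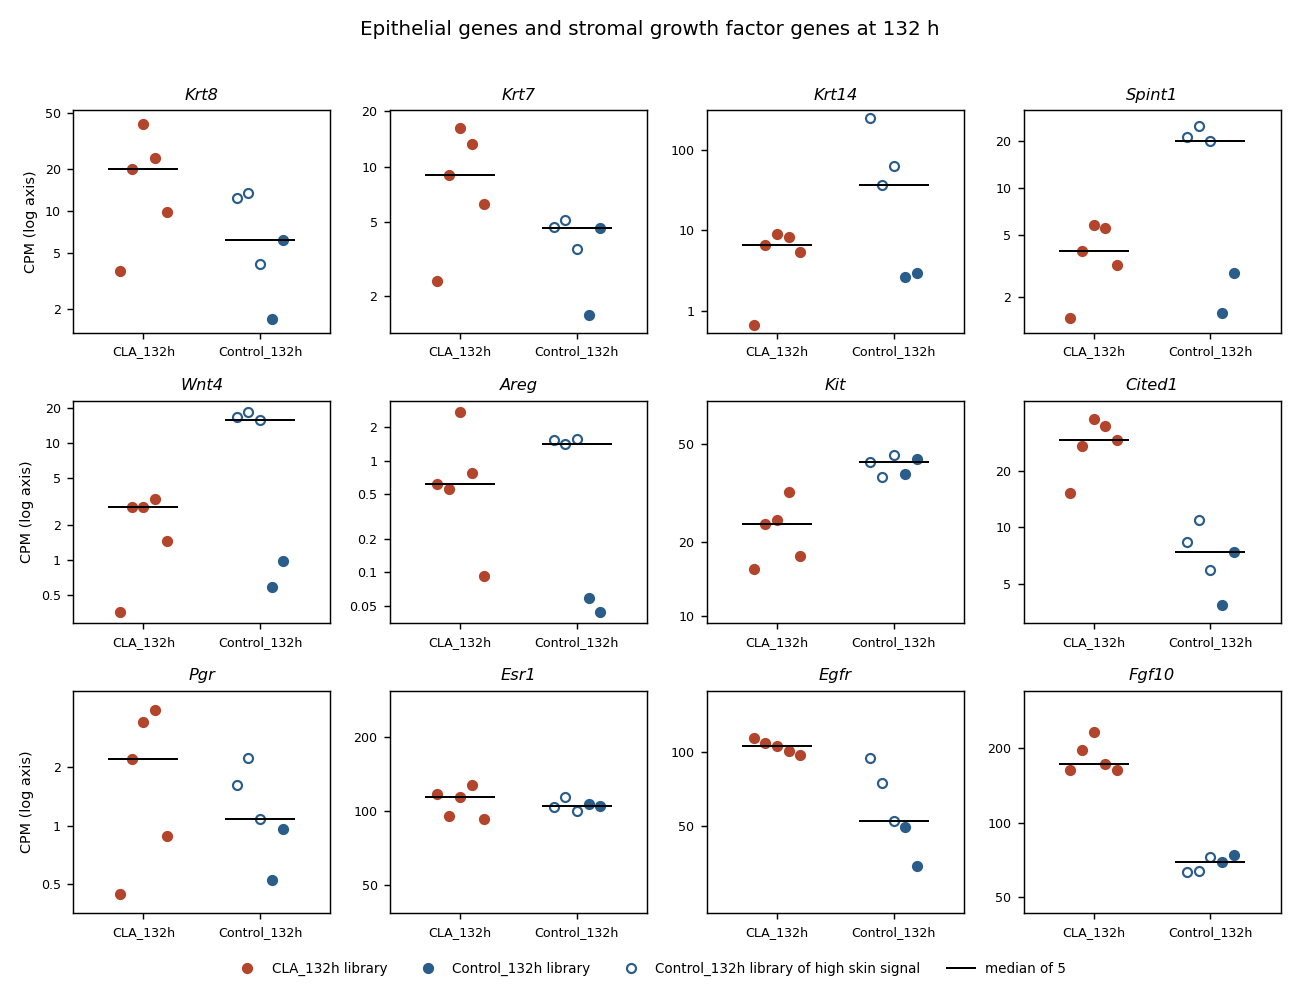
CPM of 12 epithelial and growth factor genes in each library at 132 h, on log axes, with CLA_132h at the left of each panel; open points are the 3 control libraries of high skin signal, and lines are medians. Krt14, Spint1 and Wnt4 are high in the open points alone, Krt8, Krt7, Areg, Pgr and Esr1 overlap, Cited1, Egfr and Fgf10 are higher in all 5 CLA libraries, and Kit is lower in all 5.

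The 108 h groups came from other mice and other libraries, deposited in the other count table. Whether the CLA effect differed between the times was tested as the difference of the 2 effects in 1 fit of all 40 libraries. None of 17852 genes passed the adjusted threshold in edgeR (0%), 2216 (12.4%) had an unadjusted p under 0.05, and DESeq2 called 114. Without CLA replicate 5 the edgeR count was 79, and without CLA replicate 1 it was 5. The smallest adjusted p in edgeR belonged to Tceal8 and Lum, genes chosen after their values were seen. Lum had a log2 fold change of 1.42 at 132 h and 0.53 at 108 h, a difference of 0.90 ± 0.17 (adjusted p = 0.0549). For Lum and in the pairs below, the 132 h values come from the fit of the 20 late libraries. The 108 h values come from the fit of all 40, so the pairs are not from 1 fit. Side by side, the effects at 132 h and 108 h were 5.20 and 4.20 for Trem2, -1.44 and -1.11 for Adipoq, -1.68 and -0.84 for Acacb, 1.44 and 0.90 for Fgf10, and 2.09 and 1.84 for Mki67. List medians were 2.65 and 1.84 for macrophage identity, -1.35 and -0.86 for fatty acid synthesis, and 0.54 and 0.29 for collagen. These are a few of the 59 lists, and not every median was larger at 132 h. The medians were 0.36 and 0.51 for the proteasome, 0.25 and 0.66 for immediate early genes, and 0.65 and 0.62 for the lysosome. A p that misses the threshold does not show that the effects were alike.

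**Figure D5:**
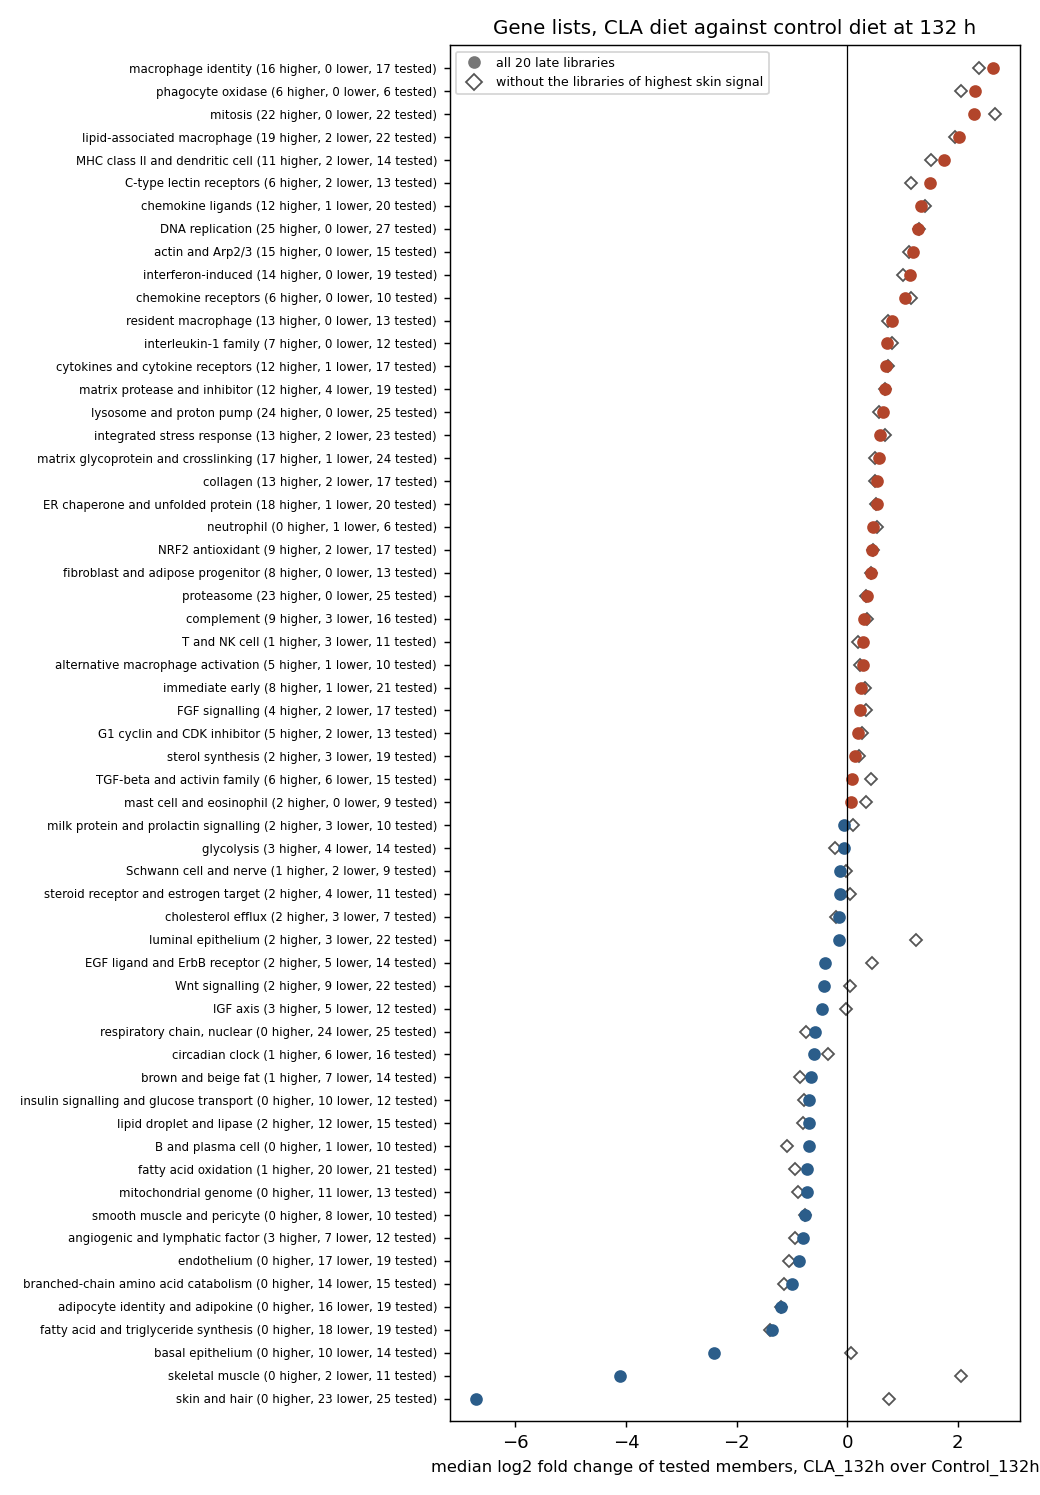
Median log2 fold change (CLA_132h over Control_132h) of the tested members of 59 gene lists, ordered by value, with the number of members called higher and lower and the number tested. Filled circles are the fit to 20 libraries and open diamonds the fit without the libraries of highest skin signal; macrophage, mitosis and lysosome lists lie right of 0 in both, fat, mitochondrial and vessel lists left of 0 in both, and skin, muscle and epithelial lists shift between them.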

How the data were processed

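RNA was read by stranded poly(A) sequencing, per the labels' protocols. The authors deposited raw counts per gene in 2 tables of 20 libraries, and RPKM values for the libraries of the late table. The build was GRCm38, per the submitters' processing notes; the sources used here do not name the aligner, counter or annotation. Counts and RPKM ranked genes broadly alike within a library (Spearman 0.847 to 0.863). Genes with near-identical copies or overlaps can differ between them and are uncertain. From 1756 to 2083 genes in a library had counts but an RPKM of 0. Of the called genes, 22 were called with the opposite sign by limma on log2(RPKM + 0.1). The summed RPKM of the NRF2 list was 5146 to 7487 in the CLA libraries and 3018 to 3299 in the control libraries. Its summed CPM overlapped between the groups.

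Genes passing edgeR's filterByExpr (count minimum 10, total minimum 15) were tested with TMM scaling and edgeR's quasi-likelihood test (edgeR 4.0.16, R 4.3.3) on all 20 libraries of the late table, with Benjamini-Hochberg adjustment at 0.05. The time difference used all 40 libraries. Alternatives used DESeq2 1.42.0 and limma 3.58.1 on log2(RPKM + pseudocount), with pseudocounts of 0.1 and 1. The procedure was run on simulated counts in which few genes changed, equally many up and down. In the data 56.0% of genes were called, so that run does not test the scaling under so many changes. CPM values are counts divided by library totals scaled by TMM. Fold changes are CLA over control.

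Members, 59 gene lists and tests were chosen with earlier results of these data known. Genes were named as the 12 largest rises and falls among called genes (mean log2 CPM of at least 1, mean RPKM of at least 0.5, no overlap, called also in the skin-low libraries), the 4 called members of each list with the smallest p, called members that moved against their list, and a panel of 22 genes. Myh4, Lum, Tceal8 and genes named beyond this rule, chiefly uncalled list members and Pparg, Cebpa, Srebf1, Mlxipl, Cpt1b, Atf4, Ddit3, Ccl2, Tfeb, Tfe3 and Timp1, were chosen after their values were seen. Promoter sequences come from RefSeq (GRCm38.p6). No 2 libraries agreed within sampling noise. Some genes tested are not reported here.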

Additional observations from a re-analysis of the deposited data

Results flagged for a closer look

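In 20 of 348 groups (5.7%) of 5 libraries for the named genes, 1 library stood apart from the other 4 (gap over range above 0.71). Chance flags about 1 in 20 for independent values of normal spread. These were unlogged CPM values of genes that are not independent, so that rate may not apply. Of the 20 flags, 7 lay in CLA_132h and 13 in Control_132h.

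In CLA replicate 1, Etv5 was lowest, at 20.4 CPM, Myh4 highest, at 16.4 CPM, and Pparg highest, at 234 CPM. In CLA replicate 3, Areg was highest, at 2.75 CPM, and Igf1 highest, at 266 CPM. In CLA replicate 5, Arg1 was highest, at 22.2 CPM, and Batf3 highest, at 12.8 CPM.

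Control replicate 1 held 8 of the 13 control values: Alb at 2950 CPM, Apoc3 at 39.4 CPM, Cbs at 25.8 CPM, Cd3g at 2.76 CPM, Cd8a at 2.44 CPM, Cd8b1 at 2.11 CPM, Fgf21 at 0.853 CPM and Krt14 at 249 CPM were each the highest control. Myh4 was highest in control replicate 2, at 343 CPM, and Atf3 in control replicate 4, at 9.44 CPM. In control replicate 5, Hk3 was highest, at 12.6 CPM, Timp1 at 3.56 CPM and Trem2 at 7.51 CPM.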

How the results depend on the processing

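Of 152 called genes named here, 139 kept their call and sign in every alternative run. The other 13 lost the call in at least 1. Of these, 9 lost it by leaving out 1 library and 10 without the libraries of highest skin signal. The naming rule favoured genes of small p, and part of it required a call in the skin-low libraries, so this share does not hold for all genes. Over all 9613 called genes, 6898 kept call and sign without the libraries of highest skin signal, and 7287 with limma on log2(RPKM + 0.1). Of 22 named genes that were not called, 9 were called in at least 1 alternative: Cd36, Slc2a1 and Nqo1 with limma on RPKM, Nqo1 and Myh4 also with all 40 libraries, Fabp4 and Myh4 with DESeq2, Fabp4 with upper-quartile scaling, Fabp4, Mertk, Egr1, Tek and Myh4 without 1 library, and Chac1 without the libraries of highest skin signal. Reversed signs were 2.30 for Chac1, 1.09 for Krt14, 0.83 for Spint1 and 1.46 for Wnt4 without the libraries of highest skin signal; the cause was not tested. The number of genes called lower was 3098 and 3123 with limma on log2(RPKM + 0.1) and log2(RPKM + 1), whose medians over all genes were 0.13 and 0.06, against 4975 from counts. Leaving out 1 library gave 8984 to 9557 genes in all, 4364 to 4616 higher and 4592 to 4941 lower. For the time difference DESeq2 called 114 genes, the fit with no filter 2, the 4 groups alone 4, and leaving out 1 library 0 to 79, of which 5 came without CLA replicate 1. The 2 groups fitted alone gave 8550 genes of 16270 tested, and that fit with the run of sample numbers in the titles as a term gave 8042. No paired analysis was possible because the replicate numbers only name the samples in accession order. With 5 libraries a group, and 2 control libraries in the skin-low fit, low-count genes are limited by depth.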

Other observations

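The circadian clock list, not described above, had 1 of 16 genes higher and 6 lower at 132 h, with a median log2 fold change of -0.61, and 1 higher and 5 lower in the skin-low libraries. Its single higher call went in 7 of the 10 fits that left out 1 library. Schwann cell and nerve genes had 1 of 9 higher and 2 lower, with a median of -0.12. The 13 windows found for 10 called NRF2 genes held the letters TGACNNNGC (either strand) in 5 cases (38.5%), against 12.4% of all windows, and the 12 windows found for 10 macrophage identity genes held GAGGAAGT in none, against 3.2% of all windows.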
